A study of Mus musculus with 4 samples.

Results

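The genes described here are 10 members of the network that holds mouse embryonic stem cells in the pluripotent state, measured after days of differentiation. They were chosen by name: the core factors Pou5f1, Sox2 and Sall4, the naive factors Nanog, Esrrb, Tfcp2l1, Klf2, Klf4 and Zfp42, and the enzyme gene Tdh. All 10 were found by symbol among the 24015 genes of the deposited count tables, and all 10 passed the low-count filter that left 14259 genes for testing. RNA came from embryoid bodies, the floating aggregates in which stem cells differentiate, harvested on day 7. There were 2 Trim33-deficient and 2 Control libraries, described in the labels as independent pairs. The Trim33-deficient bodies had loss of Trim33 induced with 4-hydroxytamoxifen on day 4, and the Control bodies are labelled as wild type in genotype. The growth and treatment protocols, tamoxifen included, are the same text for all 4 libraries. They describe lines made from embryos homozygous for a floxed Trim33 allele with the UbcCreERT2 transgene, a tamoxifen-activated Cre driven by the ubiquitin C promoter, kept without feeders in LIF and 2i before differentiation. Whether the Control bodies carried these alleles or received tamoxifen, and how many lines were used, is not settled by them. The strain label is outbred.

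In embryonic stem cells the POU factor encoded by Pou5f1 (OCT4) and the HMG-box factor SOX2 bind DNA side by side and switch on one another, Nanog and many further genes. The naive factors, several of them driven by the cytokine LIF or by WNT signals, add another layer, which is the one lost first as cells leave the naive state of the blastocyst. Several members also have work outside pluripotency: SOX2 in neural progenitors, KLF4 in epithelia, KLF2 in endothelium, and OCT4 and NANOG in primordial germ cells. TRIM33 itself is a ubiquitin ligase that binds chromatin and works with SMAD proteins.

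The libraries held 13808837 and 12109547 counts in genes (Trim33-deficient) and 12390541 and 10422738 (Control). Trim33 had 43.8 and 42.3 CPM (counts scaled to library size, with the TMM normalisation of edgeR) in the Trim33-deficient libraries, against 93.0 and 109.0 CPM in the Control libraries. Its log2 fold change, here always Trim33-deficient over Control, came to −1.23 (SE 0.13, edgeR quasi-likelihood adjusted p = 0.219, DESeq2 adjusted p = 1.78e-06), the direction the labels give. Transcripts that lack the floxed exons may still be counted. Control replicate 1 stood apart, with a Pearson coefficient across genes that ran between 0.932 and 0.952 against the others, where genes are not independent replicates, compared with a best match of 0.978 between the 2 Trim33-deficient libraries. It was also the library with the highest level for 8 of the 10 members, whereas 31.7% of all genes tested were highest there. Values without Control replicate 1 are therefore given beside the fold changes of members and the medians of lists.

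The stretches upstream of 5 members are shown because their genes took different courses between the libraries, described below, and because OCT4, SOX2 and ESRRB themselves are members. Sequences are RefSeq promoter windows on GRCm38.p6, the 250 bases before the annotated start, 5′ to 3′ on the strand of the gene. Capitals mark matches, on either strand, to ATGCAAA (the core of the octamer that OCT4 binds), CATTGT (bound by SOX factors) and TCAAGGTC (bound by ESRRB). The windows are chr6:122707239-122707488 (plus strand) for Nanog, chr8:43307010-43307259 (minus) for Zfp42, chr3:34649745-34649994 (plus) for Sox2, chr17:35505782-35506031 (plus) for Pou5f1 and chr1:118627695-118627944 (plus) for Tfcp2l1.
Nanog: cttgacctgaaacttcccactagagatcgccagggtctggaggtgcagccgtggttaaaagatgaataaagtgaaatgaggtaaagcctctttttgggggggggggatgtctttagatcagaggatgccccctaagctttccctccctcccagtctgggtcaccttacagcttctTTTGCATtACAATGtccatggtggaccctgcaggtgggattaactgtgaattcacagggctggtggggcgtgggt
Zfp42: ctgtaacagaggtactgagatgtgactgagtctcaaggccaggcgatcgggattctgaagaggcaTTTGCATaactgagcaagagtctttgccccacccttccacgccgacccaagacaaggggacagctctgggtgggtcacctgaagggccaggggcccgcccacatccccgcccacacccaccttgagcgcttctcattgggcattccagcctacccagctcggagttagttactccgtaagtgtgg
Sox2: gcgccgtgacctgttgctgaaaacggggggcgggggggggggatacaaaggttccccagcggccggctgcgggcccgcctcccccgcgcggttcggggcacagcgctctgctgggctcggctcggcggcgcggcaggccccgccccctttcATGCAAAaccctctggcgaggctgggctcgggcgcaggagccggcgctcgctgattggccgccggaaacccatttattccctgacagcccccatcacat
Pou5f1: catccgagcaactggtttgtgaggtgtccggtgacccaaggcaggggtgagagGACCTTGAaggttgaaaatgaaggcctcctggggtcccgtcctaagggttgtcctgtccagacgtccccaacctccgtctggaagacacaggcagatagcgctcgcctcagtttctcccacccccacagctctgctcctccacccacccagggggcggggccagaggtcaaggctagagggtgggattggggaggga
Tfcp2l1: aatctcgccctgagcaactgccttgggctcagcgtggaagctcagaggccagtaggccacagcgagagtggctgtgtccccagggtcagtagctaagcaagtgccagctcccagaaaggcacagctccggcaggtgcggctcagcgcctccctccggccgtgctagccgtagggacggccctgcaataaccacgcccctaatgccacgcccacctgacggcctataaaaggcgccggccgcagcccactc

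The octamer core lay in the windows of Nanog, Zfp42 and Sox2, which are 3 of the 8 members with a window, and in 4.12% of all 32851 promoter windows of this length. In Nanog it stood 75 to 69 bases before the start, with a SOX match 1 base further on, from 67 to 62 bases before it. Matches to TCAAGGTC were found in 0.935% of all windows and in 1 member, Pou5f1, at 197 to 190 bases before the start. CATTGT matched in 10.7% of windows, Nanog among them, and in a second, downstream window of Pou5f1. The motif CCNCNCCC, bound by KLF factors, matched all 8 members but also 45.9% of all windows. A member counts as matched if any of its windows matched, and Nanog, Esrrb and Pou5f1 had 2 windows each. The percentages are per window, so the member counts and these shares are not strictly alike. The Tfcp2l1 window, with 2 KLF matches, held none of the other 3 motifs. Matches to one motif did not overlap those to another in the windows shown, although KLF matches overlapped among themselves, and a match is a match of letters only.

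Day 7 bodies still held RNA of every member in every library. Per kilobase of exon (GENCODE M21, all annotated exons of a gene), Sox2 was the highest, at 60.3 and 38.6 CPM per kilobase in Trim33-deficient and 104.0 and 58.3 in Control libraries. Sall4 followed with 31.6 and 21.8 in Trim33-deficient and 41.1 and 38.1 in Control libraries, and Sox2 was above it in 4 of 4 libraries. By mean level, Klf2 (16.8 CPM per kilobase), Pou5f1 (13.4), Nanog (8.64), Tdh (8.51), Klf4 (8.02), Zfp42 (6.76), Tfcp2l1 (4.54) and Esrrb (3.81) came next. Over all 4 libraries the range of every gene overlapped that of its neighbour in this order. Within libraries, Sall4 was above Klf2 and Pou5f1 above Nanog in 4 of 4, whereas Nanog and Tdh, Tdh and Klf4, and Tfcp2l1 and Esrrb each changed places in 2 of the 4.

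The first comparison asks whether the residual network differs when Trim33 is lost during differentiation. For 9 of the 10 members the log2 fold change was under 0, and the median was −0.63, against 50.2% of all genes tested and a median of 0.00. The edgeR test called 0 members lower and 0 higher, where it called 0.014% of all genes lower and 0% higher. At an unadjusted p under 0.05 it had 4 members lower, namely Tfcp2l1, Tdh, Nanog and Sall4, and 0 higher, against 4.78% of all genes lower and 3.06% higher. DESeq2 called 1 member lower, Tfcp2l1, and 0 higher, against 0.807% and 0.182% of all genes. With the replicate number as a block, DESeq2 called 0 members, against 0.778% of all genes lower and 0.533% higher. Without the block, limma voom called 0 members. It called 0% of all genes in either direction, so its count says nothing of the members. The groups did not overlap, with the Trim33-deficient libraries lower, for 5 members, against 21.4% of all genes, and with them higher for 1, Klf4, against 19.3%. Without Control replicate 1 the median of the members was −0.265. In bulk RNA, fewer cells that express a gene and less RNA per expressing cell cannot be told apart.

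**Figure D1:**
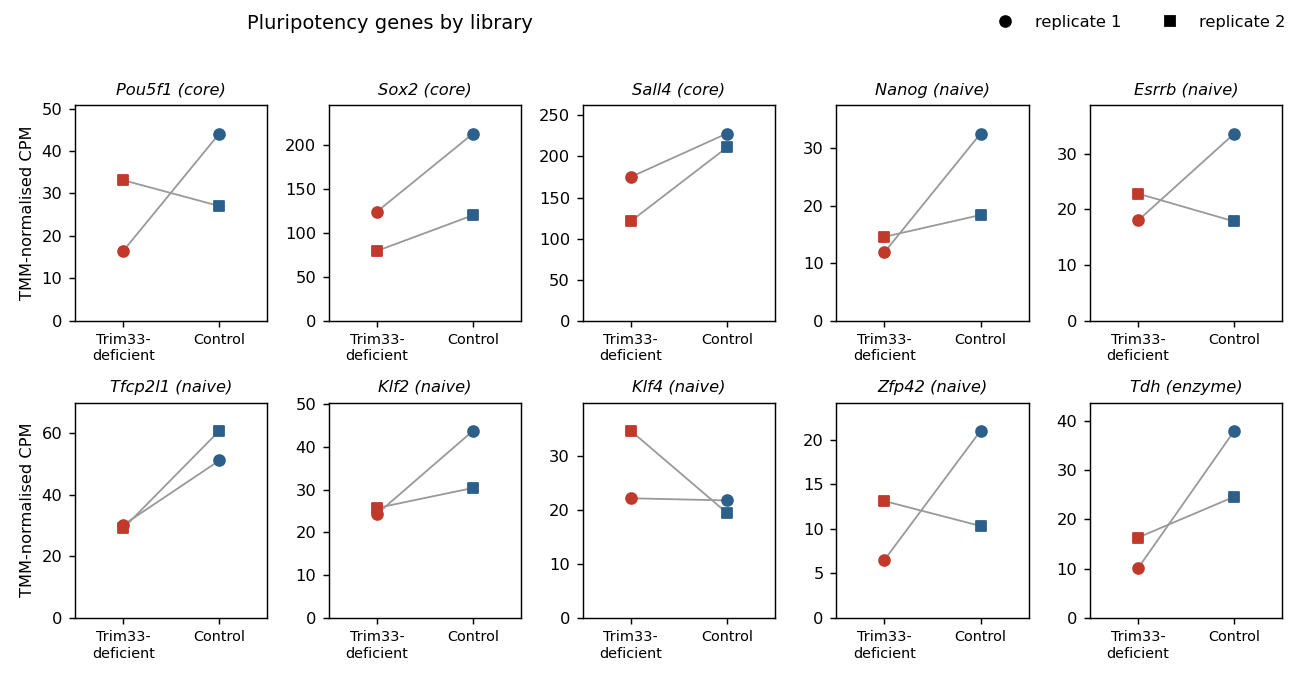
TMM-normalised CPM (y axis, from 0, own scale per gene) of each member in the Trim33-deficient (red, left) and Control (blue, right) libraries. Circles are replicate 1, squares replicate 2, and grey lines join the pair with the same number: for Pou5f1, Esrrb and Zfp42 the 2 lines slope in opposite directions, whereas for Tfcp2l1 both Control libraries (51.2 and 60.9 CPM) sit above both Trim33-deficient ones (30.2 and 29.1 CPM).

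Of the core factors, Pou5f1 had 16.4 and 33.1 CPM in the Trim33-deficient libraries, against 44.1 and 27.0 CPM in the Control libraries. The groups overlapped, since Trim33-deficient replicate 2 lay above Control replicate 2. Pou5f1 was at a log2 fold change of −0.53 (SE 0.42; edgeR adjusted p = 0.751), and at −0.13 without Control replicate 1 or −0.10 without Trim33-deficient replicate 1.

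Sox2 had 124.0 and 79.3 CPM in the Trim33-deficient libraries and 213.0 and 120.0 CPM in the Control libraries. Within each pair the Trim33-deficient library was the lower one, but the groups overlapped, because replicate 1 was higher than replicate 2 in both. On the log2 scale this is a change of −0.71 (SE 0.36; edgeR adjusted p = 0.671), and −0.24 without Control replicate 1. Without Control replicate 2, which leaves Control replicate 1 as the only Control library, DESeq2 gave −1.05.

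Sall4, a zinc finger factor that works with OCT4 and is also active in early embryonic lineages, had 175.0 and 121.0 CPM in Trim33-deficient and 228.0 and 211.0 CPM in Control libraries. The Control libraries were close together and both Trim33-deficient libraries lay below them. Sall4 was at a log2 fold change of −0.57 (SE 0.20; edgeR adjusted p = 0.628), from −0.86 to −0.32 as single libraries were left out, and −0.52 without Control replicate 1.

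Among the naive factors, Tfcp2l1, a LIF-responsive transcription factor of the grainyhead family that is also found in kidney and other epithelia, had 30.2 and 29.1 CPM in Trim33-deficient libraries, against 51.2 and 60.9 CPM in Control libraries. This is 52.9% of the Control level, and replicates differed by less than the groups did. It is 1 of the 2 members that were not highest in Control replicate 1. Its log2 fold change was −0.92 (SE 0.15), the smallest standard error of the 10, and stayed between −1.04 and −0.78 with each library left out. DESeq2 called it lower (adjusted p = 0.0148), edgeR did not (adjusted p = 0.358), and DESeq2 with the replicate number as a block did not either (adjusted p = 0.157). The DESeq2 call was lost without any 1 of the 4 libraries, with adjusted p of 0.219 or more.

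Nanog, the homeobox factor that stabilises the naive state, had 11.9 and 14.6 CPM in Trim33-deficient libraries and 32.6 and 18.4 CPM in Control libraries. The groups did not overlap, but most of the distance came from Control replicate 1, which was 1.78 times Control replicate 2. Nanog was at a log2 fold change of −0.95 (SE 0.34; edgeR adjusted p = 0.628) and at −0.48 without Control replicate 1.

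Klf2, a KLF factor that 2i culture maintains and that endothelium also expresses, had 24.3 and 25.7 CPM in Trim33-deficient libraries and 43.8 and 30.4 CPM in Control libraries. The Trim33-deficient replicates were close together and under both Control libraries. On the log2 scale the change was −0.57 (SE 0.22; edgeR adjusted p = 0.641) and −0.29 without Control replicate 1.

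Klf4 went against the other members. It had 22.1 and 34.6 CPM in Trim33-deficient libraries and 21.7 and 19.4 CPM in Control libraries, so that the groups did not overlap but Trim33-deficient replicate 1 was nearly level with Control replicate 1. Klf4 was at a log2 fold change of 0.46 (SE 0.27; edgeR adjusted p = 0.690), at 0.10 without Trim33-deficient replicate 2 and at 0.54 without Control replicate 1. Summed levels of the epithelial markers, among them Krt8, Krt18 and Cdh1, were 1780 and 1810 CPM in Trim33-deficient and 2300 and 1670 CPM in Control libraries, with 6 of the 8 tested markers below 0. The median of these markers was −0.06, and it turned to 0.181 without Control replicate 1. In pair 1, 6 of the 8 were lower, and in pair 2, 2 of the 8. The part of epithelial cells in the Klf4 values was not tested.

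Esrrb, an orphan nuclear receptor of the naive state, had 18.0 and 22.8 CPM in Trim33-deficient and 33.6 and 17.8 CPM in Control libraries. Zfp42, better known as Rex1, had 6.49 and 13.1 CPM in Trim33-deficient and 21.0 and 10.3 CPM in Control libraries. For both genes Control replicate 1 was the highest library and Trim33-deficient replicate 2 lay above Control replicate 2, so the groups overlapped. The log2 fold changes were −0.34 (SE 0.36, edgeR adjusted p = 0.805) for Esrrb and −0.68 (SE 0.51, edgeR adjusted p = 0.738) for Zfp42. Without Control replicate 1 the Esrrb value turned to 0.19 and that of Zfp42 was −0.08.

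Tdh encodes threonine dehydrogenase, the mitochondrial enzyme from which mouse stem cells draw one-carbon units and acetyl-CoA. It had the largest difference of the members by log2 fold change. Its level was 10.1 and 16.3 CPM in Trim33-deficient libraries and 38.0 and 24.6 CPM in Control libraries, 42.2% of the Control level. The groups did not overlap. On the log2 scale the change was −1.25 (SE 0.35; edgeR adjusted p = 0.552, DESeq2 adjusted p = 0.148). Leaving out Control replicate 1 gave −0.91 and leaving out Trim33-deficient replicate 2 gave −1.63. With Control replicate 1 as the only Control library, DESeq2 gave −1.51.

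**Figure D2:**
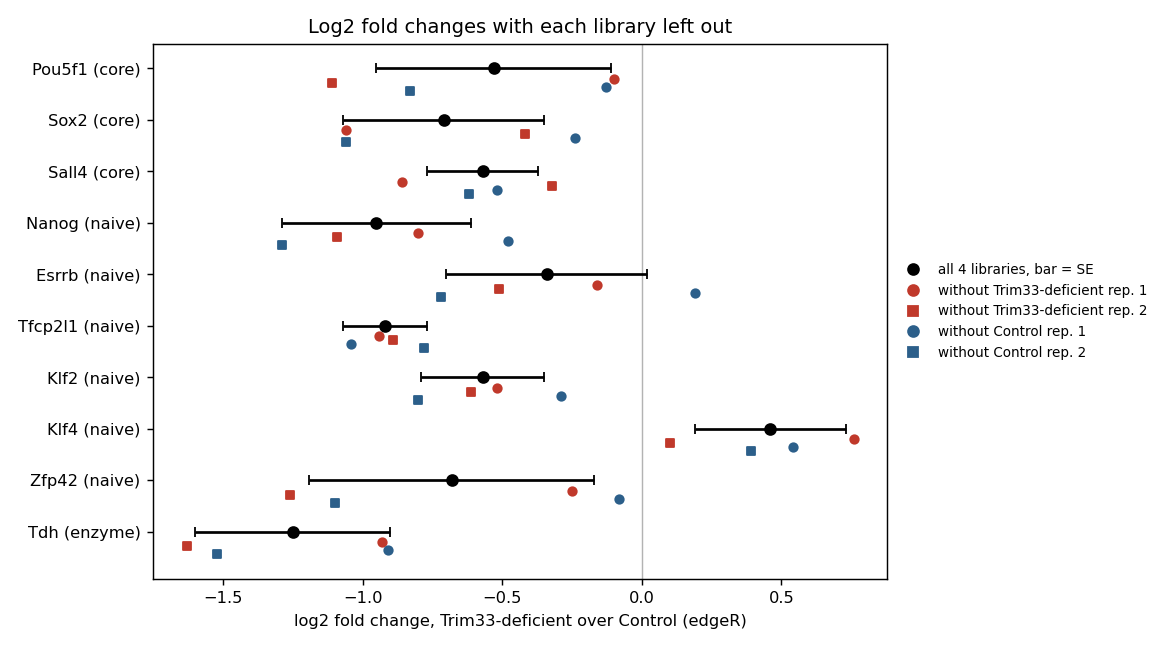
Log2 fold change (x axis, edgeR, Trim33-deficient over Control) of each member with all 4 libraries (black, bar = SE) and with each library left out (red for Trim33-deficient, blue for Control, circles for replicate 1, squares for replicate 2). Tfcp2l1 stays between −1.04 and −0.78, whereas Esrrb reaches 0.19 without Control replicate 1.

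The 2 pairs taken by number gave different pictures. In pair 1 the Trim33-deficient library was lower for 9 of 10 members, with a median log2 ratio of −0.88, and in pair 2 for 6 of 10, with a median of −0.29. Lower in both pairs were 6 members (Sox2, Sall4, Nanog, Tfcp2l1, Klf2 and Tdh), against 29.8% of all genes, and higher in both was 1, Klf4, against 30.3%. Lower in pair 1 but higher in pair 2 were Pou5f1, Esrrb and Zfp42, 3 of 10 against 20.4% of all genes, and 0 took the opposite course, against 19.6%. Pou5f1 had a log2 ratio of −1.43 in pair 1 (95% counting interval −1.66 to −1.21) and 0.29 in pair 2 (0.07 to 0.52). Esrrb had −0.90 (−1.13 to −0.68) in pair 1 and 0.36 (0.08 to 0.64) in pair 2. For both genes the opposite signs thus exceed counting error, while for Zfp42 the interval in pair 2 (−0.02 to 0.72, around 0.35) includes 0 and that in pair 1 runs from −2.06 to −1.35. These exact binomial intervals cover counting error only and say nothing of the spread between cultures. With 1 library per arm, a difference between the pairs has no replicate and was not tested.

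Members also differed in which pair held the larger change. Nanog had −1.45 in pair 1 and −0.33 in pair 2, Tdh −1.91 and −0.59, and Klf2 −0.85 and −0.24. Tfcp2l1 and Sall4 ran the other way, with −0.76 and −0.38 in pair 1 and −1.07 and −0.81 in pair 2. Sox2 was nearly the same in both, at −0.78 and −0.60.

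**Figure D3:**
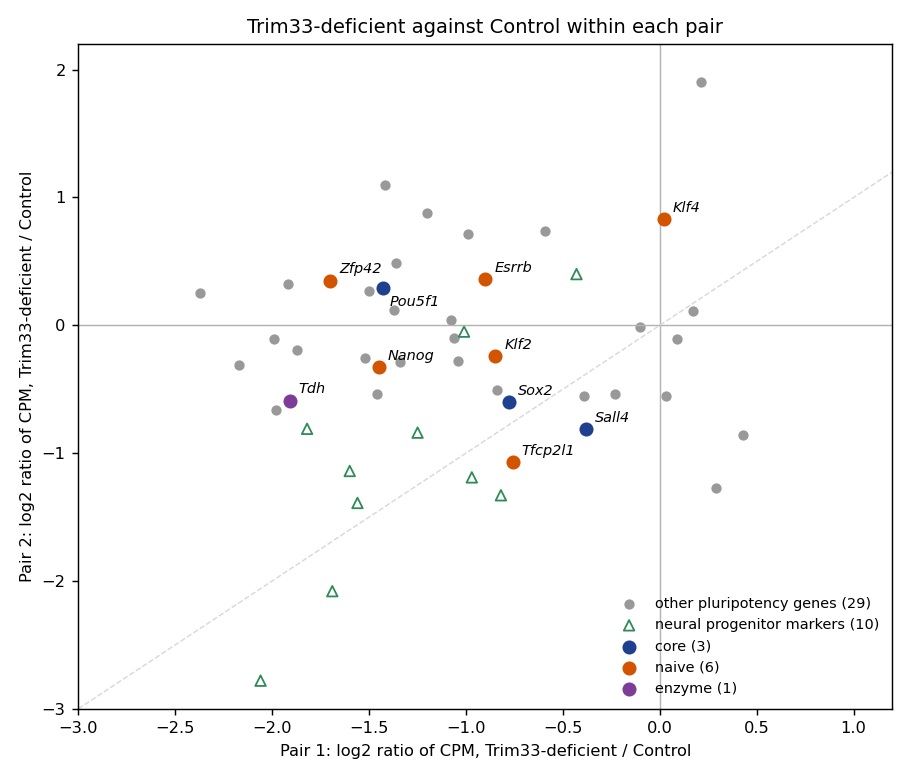
Log2 ratio of CPM, Trim33-deficient over Control, in pair 1 (x axis) and pair 2 (y axis) for core (blue), naive (orange) and enzyme (purple) members, 29 other pluripotency genes (grey) and 10 neural progenitor markers (green triangles); the dashed line marks equal ratios. Pou5f1, Zfp42 and Esrrb lie left of 0 and above 0, as do 10 of the other pluripotency genes, against 20.4% of all genes. Of the 10 neural markers, 9 are below 0 in both pairs, against 29.8% of all genes.

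The second comparison sets the naive factors against Pou5f1, Sox2 and Sall4. The median log2 fold change was −0.63 for the 6 naive and −0.57 for the 3 core factors. This difference of −0.06 had no stable sign, being 0.06 without Control replicate 1, 0.04 without Control replicate 2, 0.47 without Trim33-deficient replicate 1 and −0.32 without Trim33-deficient replicate 2. The mean log2 CPM of the naive factors less that of the core factors was −2.07 and −1.63 in the Trim33-deficient libraries, against −1.99 and −1.98 in the Control libraries. These offsets hold gene length and compare libraries, not genes. The means were −1.85 ± 0.31 in Trim33-deficient and −1.99 ± 0.01 in Control bodies (SD, n = 2 each), so that the Control libraries fall inside the range of the Trim33-deficient ones and their difference of 0.14 is within the replicate spread. Without Klf4 the difference was −0.04. In pair 1 the naive factors were 0.07 lower relative to the core factors (−0.07) and in pair 2 they were higher (0.35). An exact permutation test of 2 against 2 libraries could not pass 0.05, and no p is given for a score over chosen genes.

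Other genes of the network were drawn from a list of 29 shared and naive pluripotency genes. All 29 were tested and 26 were below 0, against 50.2% of all genes. Their median log2 fold change was −0.46, and −0.25 without Control replicate 1. The edgeR, DESeq2 and limma voom tests called 0 in either direction. Of all genes, edgeR called 0.014% lower, and DESeq2 called 0.807% lower and 0.182% higher, while limma voom called 0% in either direction. At an unadjusted p under 0.05 in edgeR, 4 were lower and 0 higher, against 4.78% and 3.06% of all genes. The Trim33-deficient libraries were both under the Control libraries for 10 genes and both over them for 1, against 21.4% and 19.3% of all genes. The highest level was in Control replicate 1 for 21 of 29, against 31.7% of all genes. In pair 1, 23 were lower, with a median log2 ratio of −1.08, and in pair 2 17, with a median of −0.11. Lower in pair 1 and higher in pair 2 were 10 of 29, against 20.4% of all genes, and 4 took the opposite course, against 19.6%.

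By smallest p, these genes were led by Mybl2, a cell cycle factor of the MYB family (−0.69, SE 0.20), and Tet1, a 5-methylcytosine oxidase (−0.46, SE 0.14). L1td1, an RNA-binding protein gene derived from a LINE-1 element, was at −0.85 (SE 0.29). Dppa3, a maternal and germ cell factor, was at −1.28 (SE 0.46). Their edgeR adjusted p ran from 0.563 to 0.628. Tet1 had 49.9 and 42.0 CPM in Trim33-deficient and 65.4 and 61.5 CPM in Control libraries, and its value without Control replicate 1 was −0.43. Without that library Mybl2 was at −0.44, L1td1 at −0.46 and Dppa3 at −1.03. Dppa3 had 19 and 29 counts in Trim33-deficient and 70 and 40 in Control libraries.

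The LIF pathway upholds Tfcp2l1 and Klf4 in stem cells. Of 9 genes tested, 6 were above 0 and the median was 0.17, or 0.282 without Control replicate 1. Il6st encodes gp130, the signalling subunit of the LIF receptor. It had 222.0 and 256.0 CPM in Trim33-deficient libraries, against 109.0 and 157.0 CPM in Control libraries. The groups did not overlap, and Il6st was at a log2 fold change of 0.84 (SE 0.21; edgeR adjusted p = 0.544), or 0.60 without Control replicate 1. The authors' deposited table of 84 genes lists Il6st as higher (log2 fold change 0.85, adjusted p = 0.0299), and holds 0 of the 10 members and 0 of the 29 other pluripotency genes. DESeq2 gave Il6st an adjusted p of 0.0636 and, with the replicate block, called it higher (0.0128), against 0.533% of all genes. Its partner Lifr was at 0.21 and the transcription factor gene Stat3 at 0.36. Without Control replicate 1 Lifr turned to −0.13 and Stat3 was at 0.38. Of the STAT3 target genes, Socs3 was at 0.05 and Bcl3 at 0.60, while the kinase genes Pim1 and Pim3 were at −0.41 and −0.21. Gbx2, also in this list, was at −0.28. In this list edgeR called 0 genes. At an unadjusted p under 0.05 it had 1 of 9 higher, Il6st, against 3.06% of all genes.

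Of genes of the formative and primed states, 8 of 14 tested were below 0, with a median of −0.20 that turned to 0.0442 without Control replicate 1 and was −0.372 without Trim33-deficient replicate 1. Dnmt3b, a de novo DNA methyltransferase, was at −0.36 (SE 0.12), the ETS factor gene Etv4 at 0.72 (SE 0.24), the WNT effector Lef1 at 0.43 (SE 0.14) and Otx2 at −1.49 (SE 0.56). Their edgeR adjusted p lay between 0.608 and 0.636. Otx2 had 41.7 and 28.3 CPM in Trim33-deficient libraries and 147.0 and 49.4 CPM in Control libraries, and was at −0.50 without Control replicate 1. DESeq2 with the block called 2 genes of this list lower, Otx2 (adjusted p = 0.00456) and Zic2 (0.0196), against 0.778% of all genes called lower and 0.533% higher, and DESeq2 without it called 0. Zic2 was at −1.05, and at −0.39 without Control replicate 1.

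Genes listed as regulators of the exit from the naive state had a median of 0.06 over 11 genes, or −0.0189 without Control replicate 1. Tcf7l1, the WNT repressor that limits naive genes, was at 0.08, and the folliculin complex genes Flcn and Fnip1 were at −0.06 and 0.08. Values farther from 0 were seen for Tfe3 (0.27), Nr2f1 (−0.57) and Nr6a1 (−0.29). Without Control replicate 1 these were 0.36, −0.15 and −0.06. Folr1, a folate receptor gene whose part in this exit was not tested, was at −1.34 (SE 0.32; edgeR adjusted p = 0.530) and at −0.86 without Control replicate 1. DESeq2 called it lower (adjusted p = 0.0476), against 0.807% of all genes called lower, but not with the replicate block (0.0642). It had 15.3 and 17.2 CPM in Trim33-deficient and 52.5 and 29.4 CPM in Control libraries, the same order of libraries as Nanog. Chromatin partners of the network, such as the NuRD and BAF subunit genes Chd4 (0.02) and Smarca4 (0.05), had a median of −0.01 over 12 genes with all libraries and −0.00626 without Control replicate 1, and their values lay between −0.25 and 0.14. The edgeR test called 0 genes in these 2 lists and in the list of formative and primed genes. At an unadjusted p under 0.05 it had 1 of the 11 genes of the exit list lower, the folate receptor gene Folr1. It had 0 of the 12 partners in either direction, and 2 of the 14 formative and primed genes lower and 2 higher. Of all genes, 4.78% were lower and 3.06% higher at this threshold.

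**Figure D4:**
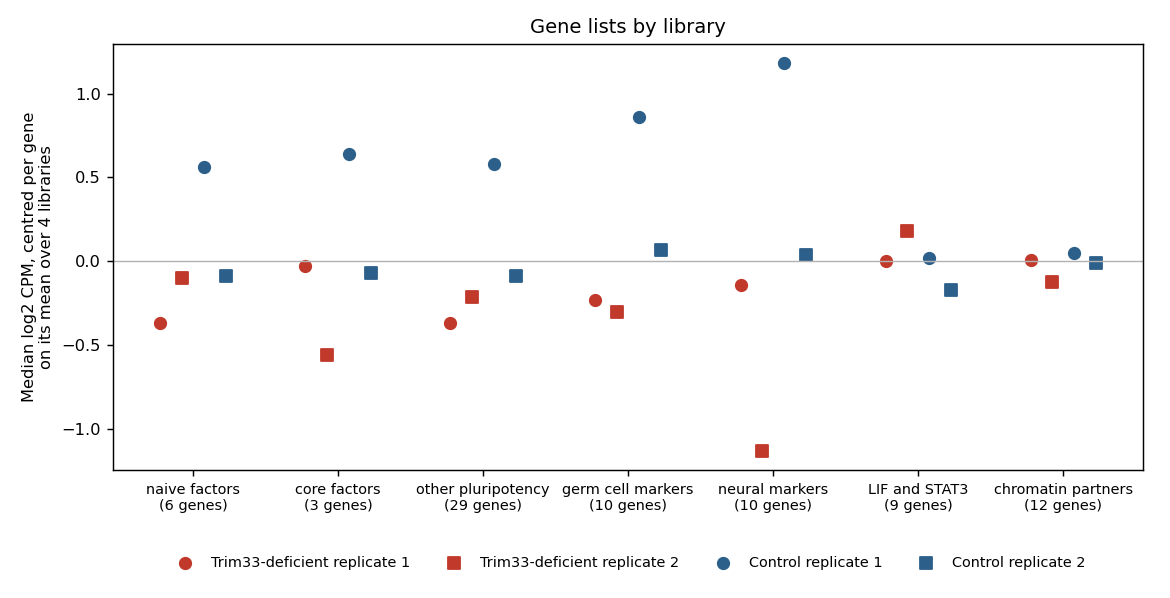
Median over the genes of each list of log2 CPM, centred per gene on its mean over the 4 libraries (y axis), in the Trim33-deficient (red) and Control (blue) libraries; circles are replicate 1 and squares replicate 2. Control replicate 1 is highest for the naive factors (0.56), core factors (0.64), other pluripotency genes (0.58), germ cell markers (0.86) and neural markers (1.18). It is also highest, by little, for the chromatin partners (0.05, against 0.01 in Trim33-deficient replicate 1), but not for the LIF list (0.02).

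Likeness to 2 members was measured as the root mean square distance of centred log2 CPM over the 4 libraries, among 4633 genes with at least 5 CPM and a range of at least 0.5. Nearest to Pou5f1 were Tinagl1 (0.072), Dppa4 (0.117), Zfp42 (0.122), Clybl (0.143) and Fgf4 (0.147). Dppa4 and Fgf4 are in the list of other pluripotency genes and Zfp42 is a member. Among the other members, Esrrb (0.286) and Nanog (0.302) came next and Sox2 (0.588) and Sall4 (0.585), the other core factors, were farthest. Nearest to Tfcp2l1 were Myo7a (0.0461), Mxi1 (0.065), Dqx1 (0.0755), Rdm1 (0.0815) and S100a1 (0.0824), with none of the members or listed pluripotency genes among them. Over 4 libraries such nearness is a description of these libraries.

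Cells in which members are also expressed were followed by markers. Of 10 primordial germ cell markers, 9 were below 0, with a median log2 fold change of −1.04, or −0.214 without Control replicate 1, and the list shares 2 genes, Dppa3 and Prdm14, with the pluripotency list. Their summed level was 161 and 140 CPM in Trim33-deficient and 265 and 159 CPM in Control libraries, most of it from Kit, Tfap2c, Prdm1 and Ifitm3. Of the later germ cell genes, Dazl had 12 and 5 counts in Trim33-deficient and 40 and 5 in Control libraries. Ddx4 had 25 and 24 counts in Trim33-deficient and 77 and 17 in Control libraries. Of 10 neural progenitor markers, all 10 were below 0, with a median of −1.28, or −0.49 without Control replicate 1. All 10 were highest in Control replicate 1, against 31.7% of all genes. Their summed level was 279 and 243 CPM in Trim33-deficient and 553 and 269 CPM in Control libraries. Of this, Nes, at a log2 fold change of −0.05, held 144.0 and 166.0 CPM in Trim33-deficient and 195.0 and 126.0 CPM in Control libraries. Sox1, a neural SOX gene, had 385 and 129 counts in Trim33-deficient and 706 and 257 in Control libraries, which is the order of libraries seen for Sox2. The part of germ cells and neural progenitors in the values of Pou5f1, Nanog and Sox2 was not tested.

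Of 10 visceral endoderm markers 9 were below 0, with a median of −3.32 and 267 and 244 CPM in sum in Trim33-deficient against 1020 and 1170 CPM in Control libraries. The edgeR test called 1 of these lower, Cubn, and DESeq2 called 7, against 0.014% and 0.807% of all genes. Of the sums, Gata4, at a log2 fold change of 0.30, held 160.0 and 158.0 CPM in Trim33-deficient and 87.9 and 171.0 CPM in Control libraries. Esrrb is also active in trophoblast stem cells, and trophoblast markers had 5 of 8 tested below 0. Their sums were 425 and 539 CPM in Trim33-deficient and 455 and 506 CPM in Control libraries. Hand1 alone held 219.0 and 344.0 CPM of these in Trim33-deficient and 120.0 and 388.0 CPM in Control libraries, and was lowest in Control replicate 1. By contrast 6 of the 8 trophoblast markers were highest in that library, as Esrrb was, against 31.7% of all genes. Mesoderm and endothelial markers had 6 of 7 below 0 and sums of 253 and 300 CPM in Trim33-deficient and 192 and 451 CPM in Control libraries. Without Control replicate 1 the medians were −3.50 for visceral endoderm, 0.164 for trophoblast (−0.24 with it) and −0.71 for mesoderm and endothelium (−0.41 with it). The endothelial genes did not share 1 order of libraries. Cdh5, which encodes VE-cadherin, had 79.3 and 60.5 CPM in Trim33-deficient and 123.0 and 87.8 CPM in Control libraries, and like Klf2 was highest in Control replicate 1. Kdr, the VEGF receptor gene, had 76.0 and 118.0 CPM in Trim33-deficient and 19.7 and 158.0 CPM in Control libraries, and was lowest in Control replicate 1. The endothelial markers Pecam1, Tek and Tie1 were lowest there too, at 24.6, 11.3 and 5.18 CPM, against 43.5, 116.0 and 41.3 CPM in Control replicate 2. Cdh5 was thus the exception among the endothelial markers listed. The part of endothelial and trophoblast cells in the values of Klf2 and Esrrb was not tested.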

How the data were processed

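Embryoid body RNA was sequenced in 4 libraries, 2 Trim33-deficient and 2 Control. Each deposited file gives raw, unnormalised counts for each gene symbol. Per the submitters' processing notes, STAR, HTSeq, DESeq and the build mm9 were used. Versions, roles and strand setting: not given in the sources used here. Overlapping antisense reads can therefore not be separated: Pou5f1, Sall4 and Tdh share exon bases with 1 antisense gene each in the GENCODE annotation, and Tfcp2l1 with 1 on its own strand. Reads shared with pseudogenes, known for Pou5f1 and Nanog, were not resolved. The 5 rows that name no gene were left out. Reads in no feature made up 55.5% to 56.0%.

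The authors' deposited table gives a fold ratio, its log2, and p-values with adjusted p-values for 84 genes, at most 0.0496. It was used for comparison.

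Genes were filtered (filterByExpr), scaled by TMM and tested with edgeR 4.0.16 (quasi-likelihood, two-sided, Benjamini-Hochberg over all genes, threshold 0.05) in R 4.3.3, without a block. SE is the absolute log2 fold change over the square root of F. For log2 CPM the prior count was 2. The alternatives comprised DESeq2 1.42.0, limma voom 3.58.1, RLE scaling, other filters, the replicate block and each library left out. The fits were also run on simulated counts, only to check the estimated changes. The planted changes were larger than those of the members, and no difference between pairs was built in. That check does not cover the p-values or calls given here.

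The labels speak of independent pairs, and numbers were taken as pairs. Across genes, libraries with the same number deviated together from their group means (Pearson 0.236). With 2 libraries per group, the opposite numbering of a group would give the same value with its sign reversed. Genes are not independent replicates either, so this value cannot show that the numbers are pairs. Replicates differed beyond sampling noise (chi-square per degree of freedom 24.3 for Trim33-deficient, 35.7 for Control). Separate lines for the replicates are not stated, and p-values then reflect only how these libraries vary, which may be technical.

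Members and lists were chosen with earlier results of these data known. Named genes are the members, Trim33, up to 4 genes of smallest p per list, the 5 genes most like Pou5f1 and Tfcp2l1, and cell type markers. Other genes named (Lifr, Stat3, Socs3, Gbx2, Zic2, Tcf7l1, Flcn, Fnip1, Chd4, Smarca4, Sox1, Dazl, Ddx4) are list members chosen after their values were seen. Not every gene the rule names is printed.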

Additional observations from a re-analysis of the deposited data

How the results depend on the processing

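Of the fits tried for the 10 members, 145 kept direction and side of the threshold, 3 passed it and 2 turned. Those that passed it were with DESeq2: Tfcp2l1 with all libraries, and Sox2 and Tdh without Control replicate 2. The latter fit leaves Control replicate 1, the library that stood apart, as the only Control library. Esrrb turned, at 0.19 without Control replicate 1 with edgeR and with DESeq2. Genes called lower were 2 with edgeR, 115 with DESeq2, 0 with limma voom, 14 with no low-count filter, 1 at 1 CPM or more in all libraries and 111 with the replicate block in DESeq2; with the replicate block in edgeR there were 2. Genes called higher were 0 with edgeR, 26 with DESeq2 and 76 with the replicate block in DESeq2. With a library left out, edgeR called 0 to 66 lower (10 without Control replicate 1) and 0 to 25 higher. DESeq2 called 46, 34, 55 and 282 lower and 8, 14, 30 and 394 higher without Trim33-deficient replicate 1, Trim33-deficient replicate 2, Control replicate 1 and Control replicate 2. Members called lower were 0 with edgeR, 1 with DESeq2 and 0 with the replicate block, and 0 to 2 with a library left out. The difference of naive and core medians, −0.06 in edgeR, ran from −0.32 without Trim33-deficient replicate 2 to 0.47 without Trim33-deficient replicate 1, and was −0.02 with the replicate block. The median of the other pluripotency genes, −0.46 in edgeR, was −0.91 (edgeR) or −0.90 (DESeq2) without Control replicate 2, −0.25 without Control replicate 1, and was −0.51 with the replicate block. The replicate block changed no other call on members than that of Tfcp2l1 with DESeq2. The cause of these moves was not tested. The single library left in a group is taken to vary as the other group does. With 2 libraries a group, calls depend on how the spread is estimated.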
